A study of Mus musculus with 2 samples.

Results

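The genes described here encode the nuclear part of the oxidative phosphorylation (OXPHOS) machinery, and their RNA was measured in mouse neural stem cells (NSCs). They were taken by symbol: every known gene whose symbol starts with Nduf, Uqcr, Atp5, Cox4, Cox5, Cox6, Cox7 or Cox8, together with Sdha, Sdhb, Sdhc, Sdhd, Cyc1 and Cycs. This gave 94 of 23257 known genes. They were sorted by complex as 36 subunits of complex I, 4 of complex II, 9 of complex III, 11 of complex IV and 15 of complex V, with Cycs as cytochrome c. The rest were 7 assembly factors of complex I, 8 tissue-restricted isoforms of complex IV subunits, the supercomplex factor Cox7a2l, and Atp5s and Atp5sl, which carry the name of the ATP synthase but are not among its subunits. The 13 subunits encoded by mitochondrial DNA were not analysed here.

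The mitochondrial inner membrane holds 5 OXPHOS complexes. Complexes I and II pass electrons from NADH and succinate to coenzyme Q, complex III passes them on to cytochrome c, and complex IV uses them to reduce oxygen. Complexes I, III and IV pump protons across the membrane, and complex V, the ATP synthase, makes ATP as the protons flow back. Most subunits are encoded in the nucleus and imported, and several subunits of complex IV exist as isoforms that differ between tissues. Cultured NSCs are generally described as relying on glycolysis to a large degree, with oxidative metabolism gaining weight as they differentiate into neurons.

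The study catalogued long non-coding RNAs of brain cell types. Its NSC set consisted of RNA-Seq libraries of a single condition, deposited as replicates 1 and 2. The cells were purchased NSCs from the E14.5 cerebral cortex of CD-1 mice. They were passaged on coated plates in medium that held 20 ng/ml each of EGF and of FGF, and no other treatment or genotype was included. Poly(A) RNA was made into paired-end libraries without strand information. Expression was given as FPKM, fragment counts scaled to the length of the transcript and to the size of the library, so genes are compared here per length. No condition was set against these cells, so levels are described with no test between conditions. The study calls its NSC replicates biological, but no source used here describes them as grown apart, and part of the spread between them may be technical.

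The study gives an average depth over all its samples, but no read counts per library were used here, and the exact depth behind each value is unknown. Over all known genes the FPKM of replicate 1 added up to 352989.8 and that of replicate 2 to 367131, and 0.1 was the lowest value, held in both libraries by 9370 known genes. Such genes are written here as listed at 0.1, which is a limit and not a measured level. All 7 NSC markers were above FPKM 10, with a median of 143, the highest being Fabp7 (1899.8 and 2211 in replicates 1 and 2) and Vim (1231 and 1205) and the lowest Pax6 (11.3 ± 0.447, SD, n = 2 libraries). All 4 microglia and all 3 endothelial markers were listed at 0.1 in both libraries, the 3 pericyte markers stood at most at 0.278, and the 5 markers of heart and skeletal muscle stood at most at 0.267. Of the neuron markers 3 of 4 were above FPKM 1, led by Snap25 (10.5 ± 0.631), with Stmn2 at 0.1. The 3 astrocyte markers ran up to Aldh1l1 (23.2 and 23.9), and the 4 of the oligodendrocyte lineage ran up to Pdgfra (3.32 and 3.57), with Mog at 0.1. In bulk RNA, fewer cells of a type and less RNA per cell cannot be told apart.

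The nuclear OXPHOS genes of NSCs had high RNA levels. Their median was an FPKM of 120.5, beside 0.695 for all known genes and 10.6 for the 11185 known genes above FPKM 1. Of the 94 genes, 90 had a mean above FPKM 1 (95.7%), against 48.1% of known genes. At FPKM 10 there were 82 genes (87.2%), against 25.1%, and at FPKM 100 there were 60 (63.8%), against 2.43%. The group held 4 of the 100 highest known genes and 19 of the 200 highest. It was 0.404% of the known genes and carried 4.41% of their summed FPKM in replicate 1 and again in replicate 2. All 76 subunits and cytochrome c were above FPKM 10 and 59 of them were above FPKM 100, with a median of 140.9. Levels under FPKM 10 were found only among assembly factors, tissue-restricted isoforms and the pair named after the ATP synthase.

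The complexes differed in the level of their subunits. Complex IV had the highest median with 395 (387 and 397 in replicates 1 and 2), followed by complex V with 319 (321 and 316), complex III with 210.0 (199 and 221), complex II with 126.6 (127 and 126) and complex I with 100.5 (97.6 and 102.7). The order was the same in both libraries, and it holds for the widely expressed subunits: with the 8 tissue-restricted isoforms counted in, the median of complex IV was 173.8, below those of complexes V and III. The median of complex IV was 3.93 times that of complex I, with ratios of 3.97 in replicate 1 and 3.86 in replicate 2, and that of complex V was 3.17 times as high. All subunits of complexes II to V lay above the median of complex I, and 11 of 15 subunits of complex V, 8 of 11 of complex IV, 3 of 9 of complex III and 0 of 4 of complex II lay above its highest member. Complexes II and I were neighbours whose genes overlapped in full, since complex II ran from 112 to 182 and complex I from 12.3 to 232. The ranges of complex V (137 to 833) and complex IV (152 to 602) overlapped as well. The median of complex V was 0.830 of that of complex IV in replicate 1 and 0.798 in replicate 2. This gap exceeded the difference between the libraries, which does not measure the spread between genes. By geometric mean, with a pseudocount of 0.1, the complexes were closer, at 331.8 for IV and 315.4 for V. Genes of the same complex, whose products are built in at fixed copy numbers, differed far more than the libraries did. The SD between genes on the log2 scale was 0.73 in complex I, 0.31 in II, 0.62 in III, 0.65 in IV and 0.73 in V, while the median difference between the libraries was at most 0.09 in each.

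**Figure D1:**
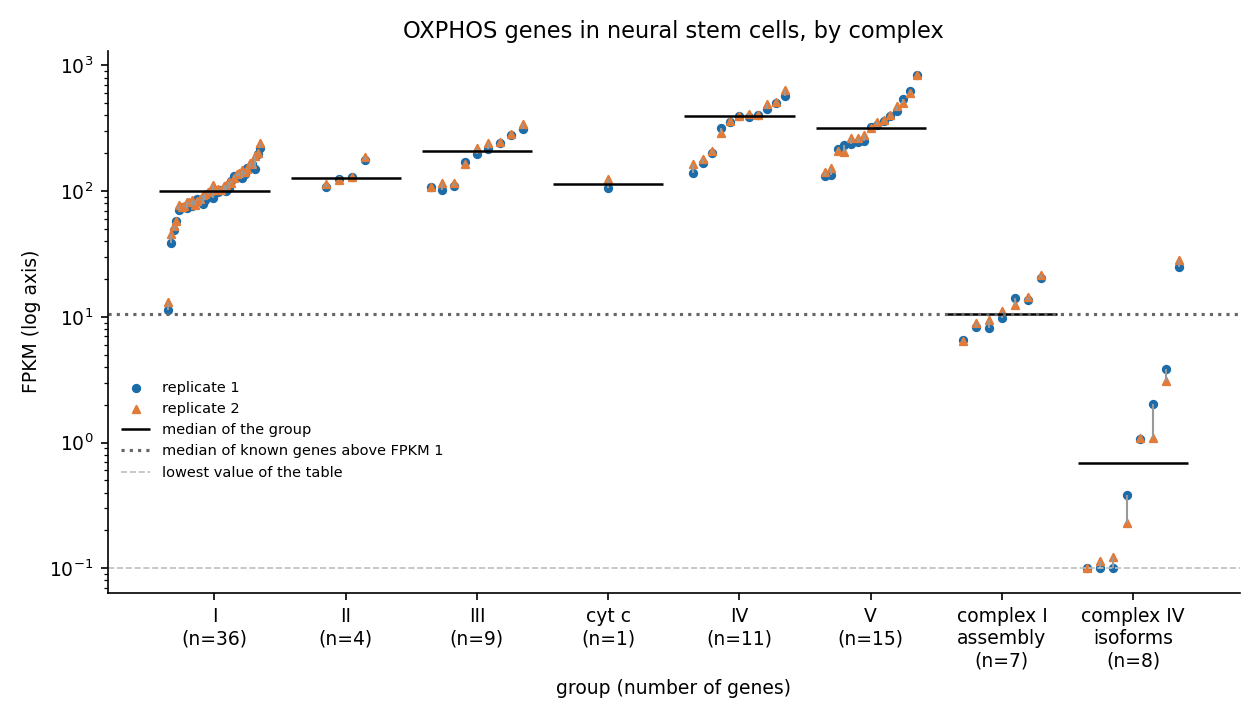
FPKM (log axis) of each OXPHOS gene in replicate 1 (circles) and replicate 2 (triangles), grouped by complex and ordered by level within a group, with the group median as a black bar. Subunits of complexes III, IV and V stand above most of complex I, while the assembly factors sit near the median of known genes above FPKM 1 (dotted line, 10.6) and most isoforms of complex IV below it.

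Complex I takes electrons from NADH and is the largest complex of the chain. Its 36 nuclear subunits were led by the accessory subunit Ndufc2, a small protein of the membrane arm, with 221 and 243 in replicates 1 and 2. Next came the accessory subunits Ndufa12 (196 and 199.9) and Ndufa3 (149.7 and 190.3). Replicate 2 was the higher library for all 3 of them, and for Ndufa3 the libraries were 1.27-fold apart.

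At the low end, Ndufs4, an accessory subunit of the arm that oxidises NADH and a known Leigh syndrome gene in humans, had 38.9 and 45.4. The lowest subunit, Ndufa11, an accessory subunit of the membrane arm, had 11.4 and 13.2 (12.3 ± 1.28, SD, n = 2 libraries). The libraries of these genes did not overlap: Ndufs4 was 3.43 times as high as Ndufa11 in replicate 1 and 3.45 times in replicate 2. The highest subunit exceeded the lowest 18.9-fold with Ndufa11 in the group and 5.50-fold without it. Ndufa11 lies on chromosome 17 from 56717767 to 56722141 (GRCm38, plus strand) and has 4 exons, and 70 exonic bases of it overlap exons of Vmac on the opposite strand. Vmac had a mean FPKM of 1.27. No near-identical copy of the Ndufa11 transcript was found. The part that annotation or mapping plays in the low value of Ndufa11 was not tested.

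The 29 accessory subunits had a median of 102.6, against 85.6 for the 7 nuclear core subunits, which carry the flavin and the iron-sulfur clusters or bind coenzyme Q, and the accessory median was 1.19 times as high in each library. The lowest core subunits were Ndufs1, which carries several iron-sulfur clusters, with 49.1 and 52.9, and Ndufv1, which binds NADH and the flavin, with 58.1 and 57.5. Higher levels were found for the iron-sulfur subunits Ndufs7 (84.3 and 86.4), Ndufv2 (78.7 and 92.4) and Ndufs8 (96.1 and 99.8), and Ndufs3 (94.1 and 98.8). The libraries of Ndufs1 and Ndufv1 did not overlap with each other or with those of these genes. In the whole complex, 25 of 35 pairs of neighbours in the order of levels overlapped between their libraries, so most of the order within complex I is not resolved. Ndufb5, an accessory subunit of the membrane arm, had 88.3 and 112, which made it the other complex I gene with libraries 1.27-fold apart.

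The assembly factors of complex I, which help to build it without staying in it, had much lower RNA levels than its subunits. The subunits' median of 100.5 stood against 10.5 for the assembly factors, and the ratio was 9.97 in replicate 1 and 9.23 in replicate 2. Ndufaf2 was the highest with 20.4 and 21.7, and Ndufaf1, which acts on the membrane arm, had 13.7 and 14.3. Ndufaf3 had 14.2 and 12.4, but 48 of its bases overlap exons of Impdh2 on the opposite strand, a gene with a mean FPKM of 67.8, and reads of both genes cannot be told apart without strand. The lowest were Ndufaf7, a methyltransferase, with 8.37 and 8.89, and Ndufaf6 with 6.57 and 6.38. Only Ndufa11 among the subunits fell within the range of the assembly factors.

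Complex II, which is also the succinate dehydrogenase of the citrate cycle, was the most even complex, with a highest gene only 1.63 times the lowest. Sdhc, a membrane anchor, was the highest with 178 and 185. The other anchor, Sdhd, had 129 and 129.7, and the iron-sulfur subunit Sdhb had 124 and 123. The flavoprotein Sdha, which oxidises succinate, was the lowest with 108 and 115. None of the 3 neighbouring pairs in this order overlapped between their libraries.

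Complex III was led by small subunits without redox centres. Uqcrh, the acidic hinge protein beside cytochrome c1, had 311 and 345, Uqcrb had 281 and 285, and Uqcrq had 243 and 246. The lowest were the Rieske iron-sulfur protein Uqcrfs1 (103 and 116) and the core protein Uqcrc1 (107 and 107), whose libraries overlapped. The nuclear subunits with a redox centre, Uqcrfs1 and cytochrome c1 (Cyc1, 171 and 164), lay in the lower part of the complex: the median of the other 7 was 1.59 times theirs in replicate 1 and 1.73 times in replicate 2. The other core protein, Uqcrc2, had 109.5 and 115, close to its partner Uqcrc1. Cycs, the soluble cytochrome c that carries electrons to complex IV, had 106.0 and 123.8 (115 ± 12.6, SD, n = 2 libraries). Its level lay within the range of complexes I and III and below that of every complex IV subunit.

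Complex IV, cytochrome c oxidase, has its catalytic core from mitochondrial DNA and its supporting subunits from the nucleus. The highest of the 11 widely expressed subunits were the small membrane subunits Cox7c (571 and 633) and Cox8a (503 and 515) and the subunit on the intermembrane side, Cox6b1 (447 and 495). Cox4i1, Ndufa4 and Cox6c came next, within 387 to 411 in both libraries. Ndufa4 was once counted with complex I and is placed in complex IV here. The lowest were Cox7a2 (169 and 179) and Cox7b (139 and 166). The mean of Cox7c was 3.95 times that of Cox7b. A processed pseudogene with a transcript near-identical to that of Cox7c, Gm10012, had its own mean of 0.40. Cox7a2l, which links complexes III and IV into supercomplexes, had 135 and 149.5, close to Cox7b.

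Complex V held the highest gene of the whole group, Atp5b, which encodes the catalytic beta subunit. It had 834 and 832 in replicates 1 and 2, and rank 43 of all known genes. Its partner Atp5a1, the alpha subunit, had 393 and 405, so that Atp5b was 2.12 and 2.05 times as high, although both proteins form the F1 head in equal numbers. Atp5g3, which encodes the c subunit of the rotor ring, had 621 and 599, and Atp5k, the small subunit e that supports dimers of the enzyme, had 540.3 and 507. Together with Cox7c these are the 4 genes of the group among the 100 highest known genes.

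At the lower end of complex V were Atp5d, the delta subunit of the central stalk, with 134 and 152, and Atp5g1 with 133 and 142, which overlapped between their libraries. The 5 subunits of the F1 head and central stalk had a median of 367, against 292.5 for the 10 subunits of the membrane part and the peripheral stalk. Their ranges overlapped, from 143 to 833 and from 137 to 609.7. Atp5l, subunit g, had 321 and 316, and 9 near-identical copies of its transcript are annotated, none of them analysed here, so its level is uncertain. Of Atp5o, the stalk subunit that joins the F1 head, 287 exonic bases are shared with Donson on the same strand, and its 338 and 353 stand beside a mean of 7.70 for Donson. Atp5s and Atp5sl were low, with 5.21 and 5.05 and with 2.40 and 2.16.

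Several subunits are encoded by a family of isoform genes. There were 8 such families with 10 pairs. In the 7 families of complex IV, a widely expressed gene has partners that are restricted to other tissues. There the widely expressed gene made up nearly all of the FPKM. Cox4i1 had 400.2 and 401 in replicates 1 and 2, against 0.383 and 0.230 for Cox4i2, the isoform of lung that responds to low oxygen. Cox6a1 had 357 and 361, against 1.06 and 1.09 for Cox6a2, the isoform of heart and skeletal muscle. The ratio of this pair was 337 in replicate 1 and 333 in replicate 2, and it was 173.8 with 1 added to each FPKM.

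The other muscle isoforms were low as well. Cox7a2 had 169 and 179, against 3.84 and 3.09 for Cox7a1, which gave ratios of 43.9 and 58.0. Cox8a had 503 and 515, against 2.02 and 1.09 for Cox8b, and the libraries of Cox8b were 1.86-fold apart, the largest difference of any OXPHOS gene above FPKM 1. The ratio of Cox8a to Cox8b was 249 in replicate 1 and 473 in replicate 2, so only its order of magnitude is resolved. Beside these isoforms, the muscle markers Acta1, Ckm, Myh6 and Tnnt2 were listed at 0.1 in both libraries and Myh7 had 0.291 and 0.242. Cox7b2 and Cox8c, isoforms of testis, and Ndufa4l2, a gene that low oxygen induces, were at or near the lowest value. Cox8c was listed at 0.1 in both libraries, Cox7b2 had 0.1 and 0.113, and Ndufa4l2 had 0.1 and 0.123. No ratio was taken against these genes. Exons of Ndufa4l2 overlap those of Shmt2 on the opposite strand by 32 bases, and Shmt2 had a mean FPKM of 92.1.

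Of the partners, Cox6b2, an isoform known from testis, stood apart. Cox6b1 had 447 and 495 in replicates 1 and 2, against 25.1 and 28.1 for Cox6b2 (26.6 ± 2.09, SD, n = 2 libraries). Cox6b2 thus made up 5.31% and 5.37% of the summed FPKM of the pair, and the ratio of Cox6b1 to Cox6b2 was 17.8 and 17.6. Cox6b2 was 6.54 times the next isoform, Cox7a1, in replicate 1 and 9.10 times in replicate 2, and it was the only isoform above FPKM 10. It ranked 2489 of all known genes, above every assembly factor of complex I. Cox6b2 lies on chromosome 7 from 4751792 to 4753094 (GRCm38, minus strand, 3 exons). No exon of another known gene overlaps it, and no near-identical copy of its transcript was found.

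The c subunit of complex V was the only family in which all genes were high. Atp5g1, Atp5g2 and Atp5g3 encode the same mature protein with different import sequences. Atp5g3 had 621 and 599 and Atp5g2 had 435 and 479.8, and the ratio of Atp5g3 to Atp5g2 averaged 1.34 ± 0.126 (SD, n = 2 libraries). Atp5g1, with 133 and 142, was the lowest in both libraries, and Atp5g3 exceeded it 4.68-fold and 4.21-fold. Together the Atp5g genes reached 1188 and 1221, more than Atp5b. Copies near-identical to the transcript of Atp5g2 are annotated, so its share is uncertain. The annotated transcript of Atp5g1 has 4715 bases, against 723 for Atp5g3 and 731 for Atp5g2, and FPKM depends on transcript length. The part of length in these ratios was not tested.

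**Figure D2:**
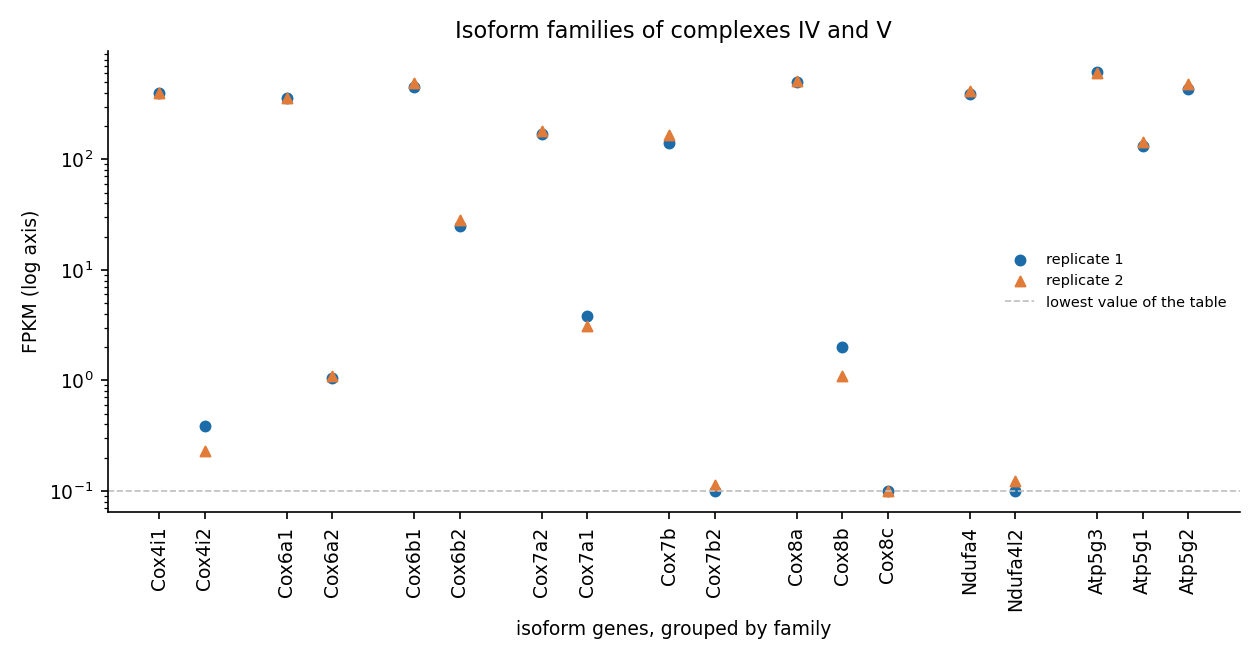
FPKM (log axis) of the genes of 8 isoform families in replicate 1 (circles) and replicate 2 (triangles). The widely expressed gene comes first in each family of complex IV, and Atp5g3 comes first among the Atp5g genes. Of the partners in complex IV only Cox6b2 stands above FPKM 10, at 25.1 and 28.1, while all 3 Atp5g genes stand above FPKM 100.

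The sequences upstream of Cox6b1 and Cox6b2 are shown because this pair was the only complex IV family with a partner above FPKM 10. They are the 120 bases before the RefSeq start of each gene, read 5′ to 3′ on the strand of the gene (RefSeq, GRCm38), with a match to the ETS motif in capitals.
Cox6b1, chr7:30626115-30626234, minus strand: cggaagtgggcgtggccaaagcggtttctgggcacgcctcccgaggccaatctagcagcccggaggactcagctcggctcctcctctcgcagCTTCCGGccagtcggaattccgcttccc
Cox6b2, chr7:4753095-4753214, minus strand: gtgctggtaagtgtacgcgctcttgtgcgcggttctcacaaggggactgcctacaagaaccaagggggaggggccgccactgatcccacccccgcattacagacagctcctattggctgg

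The stretch before Cox6b1 was 66.7% G and C and held 11 CpG dinucleotides, against 60.8% and 6 for that before Cox6b2. Only the one before Cox6b1 held the ETS motif CCGGAAG, here on the reverse strand as CTTCCGG. GENCODE M21 starts Cox6b1 further upstream, at 30626151 on the minus strand, so this match lies within the gene there. The starts of Cox7a2 and Cox7a1 differ between the annotations as well. Other pairs went either way. G and C were 40.0% before Cox7b and 56.7% before Cox7b2, with 3 and 7 CpG. They were 55.8% before Cox8a and 60.0% before Cox8b, with 9 and 1. Cox7a2 had 62.5% and Cox7a1 51.7%, with 10 and 4. An ETS match began at position -5 of Cox8a, while the stretches before Cox7a2 and Cox7b held none. A link of these features to isoform level was not tested.

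Nuclear OXPHOS genes are known targets of NRF1, a factor that binds a palindrome rich in G and C, and of GABP, a factor of the ETS family. Promoters from 250 bases before to 50 bases after the RefSeq start were found for 74 of the 94 genes. The NRF1 motif, GCGCA followed by TGCGC, which reads the same on both strands, was in 7 of these 74 (9.46%), against 1.07% of 27025 promoters and 3.65% of 384 promoters of other known genes above FPKM 100. The ETS motif CCGGAAG, searched on both strands, was in 17 (23.0%), against 9.93% of all promoters and 22.1% of those of other known genes above FPKM 100. A match is a description of letters in this window and not a bound site. The 7 matches to the NRF1 motif are shown with 10 bases on either side, the motif in capitals, and the position of the motif's first base relative to the start of the gene (negative before it).
Atp5g2, chr15:102671070-102671099, minus strand, position -42: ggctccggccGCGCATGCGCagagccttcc
Atp5k, chr5:108434430-108434459, minus strand, position -50: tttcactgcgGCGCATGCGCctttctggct
Cox6a1, chr5:115349101-115349130, minus strand, position -162: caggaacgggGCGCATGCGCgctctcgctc
Ndufa11, chr17:56717692-56717721, plus strand, position -60: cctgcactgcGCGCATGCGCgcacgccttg
Ndufaf4, chr4:24897960-24897989, plus strand, position -113: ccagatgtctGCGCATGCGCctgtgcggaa
Ndufaf5, chr2:140170652-140170681, plus strand, position 16: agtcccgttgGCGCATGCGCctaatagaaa
Uqcrc1, chr9:108936668-108936697, plus strand, position 30: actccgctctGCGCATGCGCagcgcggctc

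Genes with the NRF1 motif were spread over the range of levels. They included Atp5k (540.3 and 507) and Atp5g2 (435 and 479.8) of complex V and Cox6a1 (357 and 361) of complex IV, but also Ndufa11, the lowest subunit of complex I, and the assembly factors Ndufaf4 (9.79 and 11.1) and Ndufaf5 (8.18 and 9.41). Among promoters of OXPHOS genes above FPKM 100 the NRF1 motif was in 4 of 48 (8.33%), against 3 of 26 (11.5%) at or below it, and the ETS motif was in 13 (27.1%) against 4 (15.4%). Atp5k and Cox6a1 were the only OXPHOS genes with both motifs, and in neither do the matches overlap.

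The libraries differed little for the OXPHOS genes, as they did for known genes. Of the 90 genes above FPKM 1, 3 had a higher library more than 25% above the other, Cox8b, Ndufb5 and Ndufa3. The share was 3.16% among all known genes above FPKM 1. At higher levels such genes were 2 of 82 above FPKM 10, against 67 of 5829 known genes, and 2 of 60 above FPKM 100, against 12 of 565. None of the 90 differed by more than 2-fold, against 12 of 11185 known genes above FPKM 1. The log2 ratio of replicate 1 to replicate 2 had a median of -0.06 and an SD of 0.15, beside -0.02 and 0.19 for all known genes. Replicate 1 was below replicate 2 for 68 of the 90 genes (75.6%), against 56.2% of known genes above FPKM 1. Above FPKM 100 the share was close to that of known genes at the same level, with 47 of 60 OXPHOS genes (78.3%), against 78.2%. After each library was divided by its summed FPKM, replicate 1 was below replicate 2 for 47 of the 90, against 37.0% of known genes, so the direction between the libraries depends on the scaling.

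**Figure D3:**
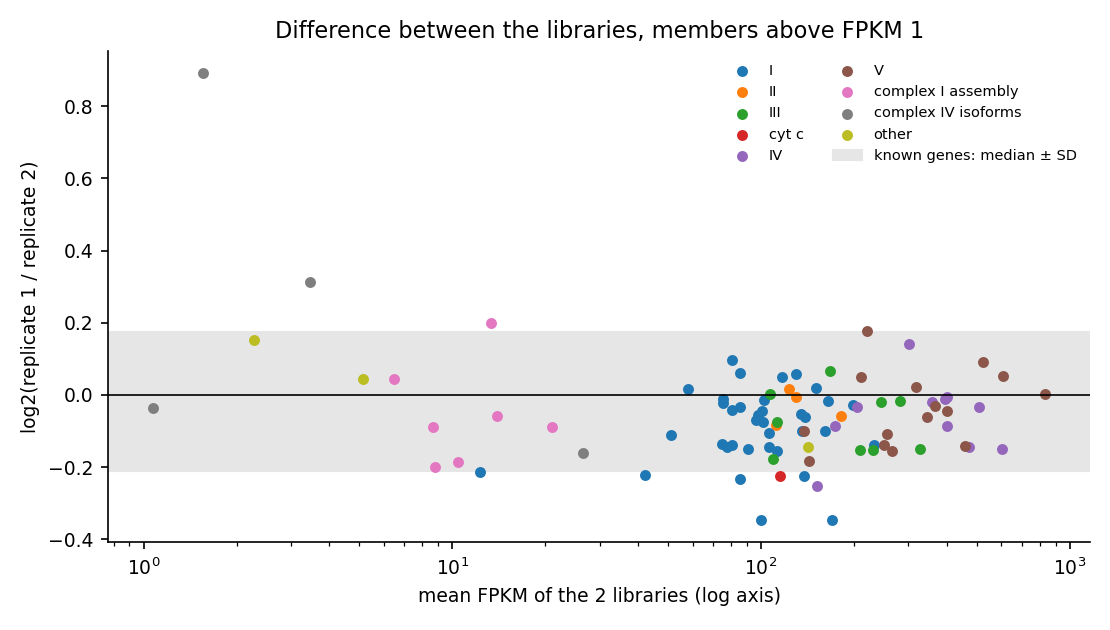
Log2 ratio of replicate 1 to replicate 2 against the mean FPKM (log axis) for the 90 OXPHOS genes above FPKM 1, coloured by complex, with the median ± SD of known genes above FPKM 1 as a grey band. Most genes lie within the band and below 0, and Cox8b stands furthest out at 0.89.

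Levels also went with the annotated length of the transcript. Among the 76 subunits and cytochrome c, whose annotated transcripts ran from 371 to 4715 bases, Spearman's rho of length and FPKM was -0.36 across genes, with -0.30 in complex I (36 genes), -0.52 in complex III (9 genes), -0.71 in complex IV (11 genes) and -0.38 in complex V (15 genes). The genes share the same libraries and are not independent, and FPKM is itself divided by length, so these values are a description. The lengths are from GENCODE M21, while the FPKM rest on the study's own merged annotation. The lengths that divided the counts may therefore differ. The part of length in the order of the complexes was not tested.

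Some levels are uncertain because reads could belong to another gene. Near-identical transcripts of another gene are annotated for 11 of the 94 genes, namely Atp5c1, Atp5g2, Atp5h, Atp5k, Atp5l, Atp5o, Cox7c, Ndufb11, Ndufs3, Ndufs6 and Uqcrb, most of them from processed pseudogenes. For Atp5o the match is Donson, which shares 287 exonic bases with it on the same strand. It is thus an overlap, also counted below, and not a separate copy. Exons of 19 genes overlap those of another known gene, and 18 of these overlaps lie on the opposite strand only. The OXPHOS gene was the higher of the pair in all but 2 cases, Ndufaf3 beside Impdh2 and Ndufa4l2 beside Shmt2.

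Around the complexes, the pathways that feed them and use their output differed widely in level. The 16 genes of glycolysis had a median of 226, with Gapdh (1041 and 1187) and Pkm (542 and 539.9) the highest and the hexokinase Hk2 (5.63 and 5.42) the lowest, and 11 of 16 were above FPKM 100. The 7 carriers and porins that exchange ATP, ADP and phosphate had a median of 207, led by the ADP/ATP carriers Slc25a5 (873 and 930.3) and Slc25a4 (387 and 389), while the testis carrier Slc25a31 was listed at 0.1. The median of the OXPHOS subunits and cytochrome c, 140.9, was thus below these but above the 13 genes of the citrate cycle, at 1.78 times their median in replicate 1 and 1.94 times in replicate 2. By complex the picture was mixed. The medians of complexes IV (395) and V (319) were above those of glycolysis and of the carriers and porins. That of complex III (210.0) lay between them, and those of complexes II (126.6) and I (100.5) were below both. Citrate cycle genes had a median of 77.3 and ran from Mdh2 (246 and 254) and Cs (216 and 223) down to Ogdh (24.8 and 24.6).

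Genes that regulate or assemble the chain lay near the level of an average transcribed gene. The 31 measured assembly factors outside the Ndufaf group had a median of 11.5, with 17 above FPKM 10 and 0 above FPKM 100. The copper chaperone Cox17 (77.5 and 69.1) and Cox14 (65.7 and 63.3) were the highest, and Lyrm7, which serves complex III, was the lowest with 2.49 and 2.42. The OXPHOS subunits had 11.8 and 12.7 times this median in replicates 1 and 2. Coenzyme Q synthesis had a median of 9.37 over 10 genes, from Coq7 (45.3 and 47.9) and Coq9 (36.7 and 35.7) to Adck3 (0.920 and 0.775). The pyruvate dehydrogenase complex and its kinases had 14.8 over 8 genes, from Pdha1 (114 and 123) and Pdhb (75.8 and 84.9) to the kinase Pdk4 (1.55 and 1.87).

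The 12 genes for transcription of OXPHOS genes and mitochondrial DNA had a median of 10.04, and 0 of them were above FPKM 100. Yy1 was the highest with 29.1 ± 4.51 (SD, n = 2 libraries), followed by Esrra (17.0 and 16.0) and Gabpa (16.3 and 16.7), the DNA-binding subunit of GABP, which overlapped. Exons of Gabpa overlap those of Atp5j, which encodes subunit F6 of complex V, by 182 bases on the opposite strand, and Atp5j had 233 and 206. Nrf1 itself had 10.1 and 9.47. Of the coactivators, Ppargc1a had 7.31 and 7.23, and Ppargc1b was the lowest of the list with 1.05 and 0.959. Among 10 genes of uncoupling and of other entries to coenzyme Q, with a median of 11.5, the electron transfer flavoproteins Etfb (59.3 and 60.7) and Etfa (56.4 and 60.5) were the highest. The uncoupling proteins Ucp1 and Ucp3 were listed at 0.1, but Ucp2 had 13.2 and 16.4. Slc25a14 (5.97 and 6.59) and Slc25a27 (3.96 and 3.85) of this list were above FPKM 1 as well.

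Other large assemblies gave a scale for these values. The 80 genes with symbols of cytosolic ribosomal proteins had a median of 692, the 40 of proteasome subunits had 70.5 and the 76 of mitochondrial ribosomal proteins had 29.8. The OXPHOS subunits therefore lay between the cytosolic ribosome and the proteasome. Subunits of complex V that the symbol rule missed, 2010107E04Rik (335 and 357) and Usmg5 (264 and 308), lay in its range. So did Atpif1 (217 and 221), an inhibitor of the complex and not a subunit.

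**Figure D4:**
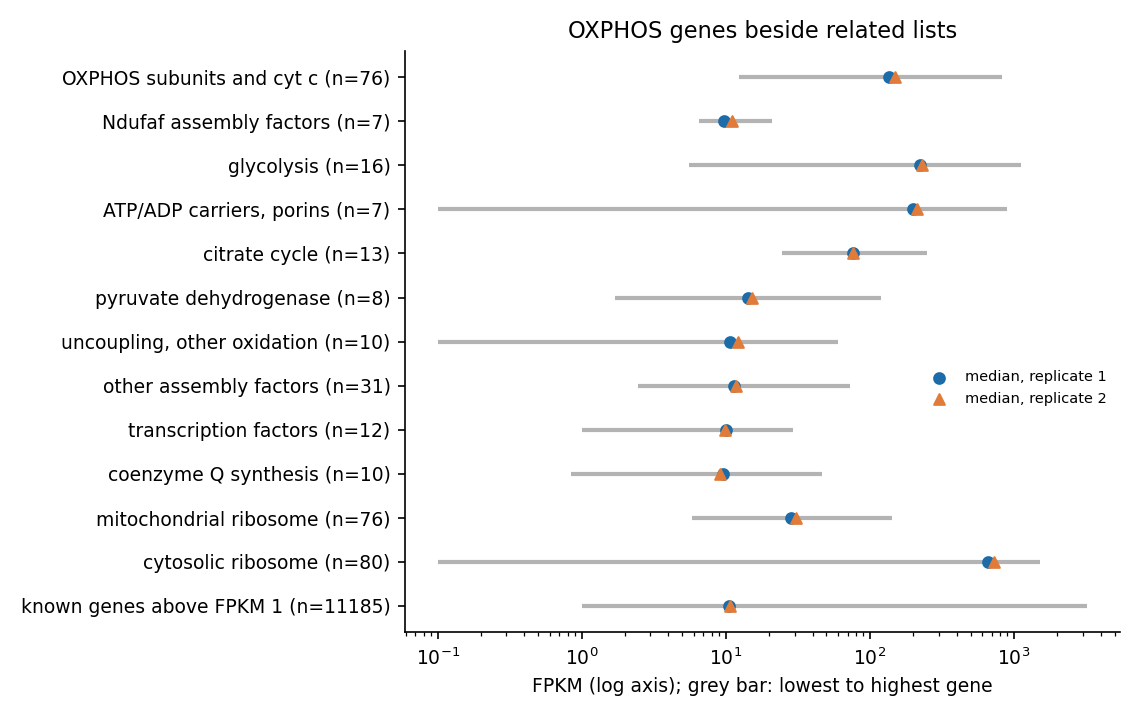
Median FPKM (log axis) of the OXPHOS subunits and cytochrome c and of related gene lists in replicate 1 (circles) and replicate 2 (triangles), with a grey bar from the lowest to the highest gene of each list. The OXPHOS subunits stand at 140.9 and run from 12.3 to 833, above the citrate cycle (77.3) and all lists of assembly and transcription factors.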

How the data were processed

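RNA-Seq was performed on NSC replicates 1 and 2, which were not pooled. By the study's methods and the submitters' processing notes, the authors used TopHat 2.0.11 and Bowtie2 2.2.2 to place paired reads on mm10 and ran Cufflinks 1.3.0 with multi-read and bias correction. The deposited values are FPKM with no value below 0.1. The study gives only an average depth over its samples. The depth of each library is unknown, so the spread between the replicates is the only measure of precision used, and counting error could not be given.

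The mean ± SD of the replicates was taken for each gene, and groups were described by medians and by counts above FPKM 1, 10 and 100, with no test. Genes were grouped by role from a hand-made list. The genes named are the 3 highest and 2 lowest of each complex, those listed at 0.1 in both libraries, isoform families, genes above FPKM 1 with libraries more than 25% apart, and the 2 highest and the lowest of each related list; other genes, among them further core subunits of complex I, Cox7a2l, Atp5l, Atp5o, Ndufaf1, Ndufaf3, genes with near-identical copies or the NRF1 motif, cell type markers and further transcription factors, were named after their values were seen. Members and lists were chosen with earlier results of these data known. Coordinates, exons and transcript lengths came from GENCODE M21 (GRCm38, which mm10 is built on) and promoters from RefSeq. A near-identical copy is a transcript with 95% identity over 50% of the member's transcript (BLAST 2.17.0). Python 3.11.15, NumPy 2.4.6, pandas 2.3.3, SciPy 1.17.1 and matplotlib 3.10.9 were used. Summary functions were tested on simulated data. Some values are not reported here. The lncRNA table held no row with a symbol of these genes and was not used further. Alternatives were other FPKM thresholds, groupings, summaries, pseudocounts and scalings, and each library alone.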

Additional observations from a re-analysis of the deposited data

How the results depend on the processing

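The order of complexes IV, V, III, II and I was the same by geometric mean and in each library alone. With the tissue-restricted isoforms counted in, the median of complex IV was 173.8, below that of complex III, and with Ndufa4 moved to complex I it was 377. Geometric means with a pseudocount of 0.1 were 96.8 for complex I, 134.2 for II, 184.1 for III, 331.8 for IV, 315.4 for V and 0.849 for the isoforms, and with a pseudocount of 1 they were 134.2 for II, 184.2 for III, 331.9 for IV and 1.41 for the isoforms. The median of the OXPHOS genes was 129.6 for those above FPKM 1 and 140.9 for subunits and cytochrome c alone. With either library left out it was 121.9 to 123.4, and that of complex IV was 387 to 397. The number of OXPHOS genes above the threshold was 82 at FPKM 10 and 60 at FPKM 100, against 90 at FPKM 1. The median log2 ratio of the libraries was -0.0031 after scaling to the summed FPKM, against -0.06 as deposited. Adding 1 to each FPKM lowered the ratio of Cox4i1 to Cox4i2 to 309, against 1393 as the mean of the libraries, that of Cox6a1 to Cox6a2 to 173.8, against 335, and that of Cox8a to Cox8b to 207, against 361. The ratios of Cox7a2 to Cox7a1 (39.6, against 51.0) and Cox6b1 to Cox6b2 (17.1, against 17.7) moved less. No paired analysis was possible because there was only 1 condition. The ratio of the libraries could not be computed with 1 left out. The unknown depth of each library limits what can be said of genes under FPKM 1, and transcripts with near-identical copies or unstranded overlaps are uncertain.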
